A study of Mus musculus with 8 samples.

Results

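The genes of the proteasome were examined in small blood vessels (microvessels) of mouse brain after an experimental stroke. Genes were taken by name: every protein-coding gene with a deposited fold change whose symbol begins with Psma, Psmb, Psmc, Psmd, Psme, Psmf or Psmg followed by a digit. This gave 50 genes of the 31616 genes with a fold change, and 4 further names of the kind belonged to pseudogenes and were left out. One of the 50, Psmc3ip, carries the name but encodes a meiotic recombination factor and not a proteasome subunit. All mice were wild-type C57BL6. RNA was sequenced from 4 libraries of sham-operated mice and 4 libraries of mice with tMCAO (transient middle cerebral artery occlusion, in which a large brain artery is blocked for a time and then reopened). No source used here gives age, the duration of the block, the time to sampling, or whether each library came from its own mouse. The p-values thus reflect the spread among these 8 libraries, part of which may be technical. The values are the authors' own comparison of the groups, so levels in single libraries, and whether the groups overlap, were not analysed here. Which group stands in the numerator is not stated. A positive value was taken to mean higher after tMCAO, since the acute injury genes Il6 (5.92), Lif (5.14) and Hmox1 (3.81) carried large positive log2 values in the authors' deposited table.

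The proteasome is the large protease that degrades proteins tagged with ubiquitin. Its core particle is a barrel of stacked rings: alpha subunits (Psma) form the outer rings and gate the entrance, and beta subunits (Psmb) form the inner rings, where Psmb5, Psmb6 and Psmb7 cut the substrate. A regulatory particle, built of a ring of ATPases (Psmc) and of non-ATPase subunits (Psmd), binds ubiquitin chains, unfolds the substrate and feeds it into the barrel. Interferons induce Psmb8, Psmb9 and Psmb10, which replace the constitutive cutting subunits in newly made particles and so form the immunoproteasome, a source of peptides for MHC class I molecules. The activators Psme1 to Psme4 cap the barrel without ATP hydrolysis. When proteasome activity falls, the transcription factor encoded by Nfe2l1 raises the expression of many subunit genes together.

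Windows around the starts of 4 genes are shown because the results below set these genes side by side: the constitutive cutting subunits Psmb5 and Psmb6, the immunoproteasome subunit Psmb9 and the activator subunit Psme1. Each runs from 250 bases before to 50 bases after the RefSeq gene start (GRCm38.p6), 5′ to 3′ on the gene's strand. Capitals mark TGACNNNGC, the core of the element bound by the Nfe2l1 and Nfe2l2 proteins, and an interferon response element made of a pair of GAAA half-sites with any 2 bases between them. Both were searched on both strands. Psmb5 lies on the minus strand (window chr14:54617946-54618245), Psmb6 on the plus strand (chr11:70525107-70525406), Psmb9 on the minus strand (chr17:34187281-34187580) and Psme1 on the plus strand (chr14:55578244-55578543).
Psmb5: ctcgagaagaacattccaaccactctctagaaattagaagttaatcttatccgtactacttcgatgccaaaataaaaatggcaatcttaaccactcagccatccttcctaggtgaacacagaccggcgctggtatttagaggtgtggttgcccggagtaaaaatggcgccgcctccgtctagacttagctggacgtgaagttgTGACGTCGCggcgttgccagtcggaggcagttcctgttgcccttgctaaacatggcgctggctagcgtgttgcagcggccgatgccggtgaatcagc
Psmb6: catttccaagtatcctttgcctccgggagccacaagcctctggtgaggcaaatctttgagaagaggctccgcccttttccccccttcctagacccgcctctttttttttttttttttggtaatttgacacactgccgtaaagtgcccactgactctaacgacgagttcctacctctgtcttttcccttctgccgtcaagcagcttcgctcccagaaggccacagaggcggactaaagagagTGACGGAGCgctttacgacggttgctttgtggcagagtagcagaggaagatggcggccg
Psmb9: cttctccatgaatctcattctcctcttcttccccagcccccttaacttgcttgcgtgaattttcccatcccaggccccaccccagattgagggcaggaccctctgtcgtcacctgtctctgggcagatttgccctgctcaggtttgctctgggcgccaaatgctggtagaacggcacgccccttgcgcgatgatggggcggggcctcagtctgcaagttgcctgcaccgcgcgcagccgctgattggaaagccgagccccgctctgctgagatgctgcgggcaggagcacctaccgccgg
Psme1: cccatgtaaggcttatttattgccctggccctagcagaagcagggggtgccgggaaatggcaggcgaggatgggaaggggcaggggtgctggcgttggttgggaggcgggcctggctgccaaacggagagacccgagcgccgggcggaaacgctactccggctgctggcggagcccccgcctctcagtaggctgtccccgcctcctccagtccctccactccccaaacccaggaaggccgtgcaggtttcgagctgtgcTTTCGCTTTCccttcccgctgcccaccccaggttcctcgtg
The match in Psmb5 starts 47 bases before the gene start and that in Psmb6 starts 9 bases before it. The match in Psme1 reads TTTCGCTTTC on the gene's strand and starts 9 bases after the gene start. The window of Psmb9 holds neither set of letters. Windows were found for 42 of the 50 genes. TGACNNNGC was present in 6 of these 42 genes (14.3%, Psmb5, Psmb6, Psmc6, Psmd12, Psmd9 and Psme4) against 14.0% of all 27025 genes with a window. The paired GAAA half-sites were present in 5 of 42 (11.9%, Psmb3, Psmd4, Psmd9, Psme1 and Psmg4) against 3.99% of all genes. No immunoproteasome gene among the 42 held them. Psmb9 had a window, and whether Psmb8 and Psmb10 had one is not reported here. CCAAT was present in 15 of 42 (35.7%) against 41.1%. CCAAT is the box bound by NF-Y. None of these motifs can lie wholly within another, and a match describes the sequence only.

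Proteasome genes were higher after tMCAO almost throughout. Of 50 genes, 48 had a deposited p-value, and 38 of these 48 passed an adjusted p of 0.05 with a higher value, against 15.2% of all 19294 tested genes and 18.4% of tested protein-coding genes. None of the 48 passed with a lower value in the authors' p-values, against 17.6% of all tested genes. At an unadjusted p under 0.05 the count lower was also 0, against 4205 of all 19294 tested genes. All 48 log2 fold changes were above 0. Their median was 0.60 (quartiles 0.43 and 0.72), beside -0.0008 over all tested genes (quartiles -0.32 and 0.32), and 12.8% of tested genes had a log2 fold change above that median. The changes were modest, and in the authors' deposited table Psma8 alone reached a linear fold change of 2 among the tested members. An implied standard error (SE), worked out from each fold change and its p-value, ranged from 0.093 to 0.32 among the members, with a median of 0.16. The deposited fold changes may have been shrunken towards 0, which would make these folds too small and the implied errors approximate. In these bulk samples a change in the share of a cell type and a change in RNA per cell cannot be told apart.

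**Figure D1:**
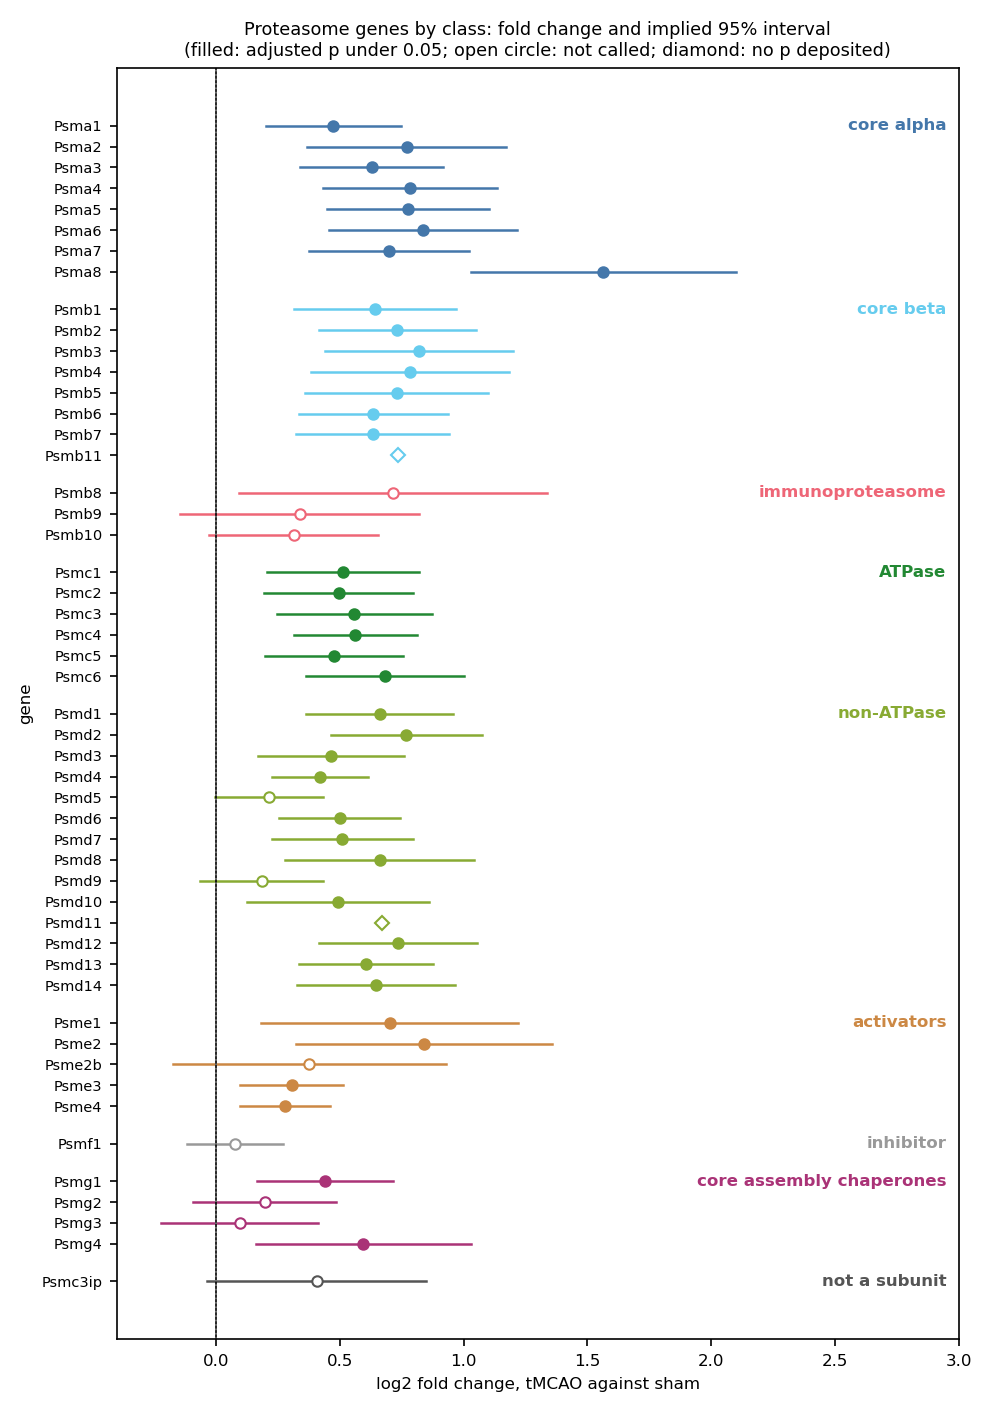
Log2 fold change (x axis, tMCAO against sham) of each of the 50 proteasome genes (y axis), grouped by class. Points are the deposited values and lines the implied 95% intervals; filled points passed an adjusted p of 0.05 (38 genes), open circles did not (10) and diamonds had no p-value (2). All values lie right of 0, and the open circles are the 3 immunoproteasome genes, Psmd5, Psmd9, Psme2b, Psmf1, Psmg2, Psmg3 and Psmc3ip.

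Genes of the outer ring rose without exception. All 8 alpha subunit genes passed with higher values (background 15.2%), with a median log2 fold change of 0.77. Psma5 had the smallest adjusted p among the widely expressed alpha genes, with a log2 value of 0.78 by the authors' deposited table (implied SE 0.17, adjusted p = 6.84e-05). Psma6 stood at 0.84, Psma4 at 0.78, Psma2 at 0.77, Psma7 at 0.70 and Psma3 at 0.63 in the authors' deposited table. Psma1 was the lowest, 1.39-fold higher by the authors' deposited table (log2 value 0.47 with an implied SE of 0.14, adjusted p = 0.00391). The 7 widely expressed genes thus lay between 0.47 and 0.84, and each interval overlapped those of the others.

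Psma8, an alpha subunit known from the testis, where it takes the place of Psma7 in the ring, was 2.96-fold higher by the authors' deposited table (log2 value 1.56 with an implied SE of 0.27, adjusted p = 5.92e-07). Its value was the highest of all 50 genes, and 1.80% of tested genes had a higher one. Its implied interval ran from 1.03 to 2.10 and that of Psma7 from 0.38 to 1.02. The coding sequences of the pair (GENCODE M21) matched at 74.9% of aligned bases, and their longest identical stretch was 17 bases. Psma8 lies on chromosome 18 from 14706151 to 14762301 in GENCODE M21 (GRCm38), and no exon of another annotated gene overlapped its exons. How many reads stand behind its value was not analysed here.

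Genes of the inner ring rose within a narrow range. All 7 tested genes of the constitutive beta subunits passed with higher values (background 15.2%), with a median of 0.73 (log2 scale) and a range of 0.63 to 0.82. The cutting subunit gene Psmb5, the chymotrypsin-like site, was 1.66-fold higher by the authors' deposited table (log2 value 0.73 with an implied SE of 0.19, adjusted p = 0.000955). Psmb6, the caspase-like site, was 1.55-fold higher by the authors' deposited table (log2 value 0.64 with an implied SE of 0.15, adjusted p = 0.000378). Psmb7, the trypsin-like site, was 1.55-fold higher by the authors' deposited table (log2 value 0.63 with an implied SE of 0.16, adjusted p = 0.000616). Psmb7 shares 405 exonic bases, 11.8% of its exons, with Nek6 on the other strand. Nek6 stood at 1.49 on the log2 scale in the authors' deposited table. No source used here gives the strand setting of the counting, so the value of Psmb7 is uncertain.

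Among the structural beta subunits, Psmb2 had the smallest adjusted p of the class, with a log2 value of 0.73 by the authors' deposited table (implied SE 0.16, adjusted p = 0.000102). Psmb3 was the highest at 0.82, followed by Psmb4 at 0.78 and Psmb1 at 0.64, in the authors' deposited table. Psmb11, the cutting subunit of the thymus-specific proteasome, stood at 0.73 on the log2 scale in the authors' deposited table without a p-value.

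The immunoproteasome genes were not called. None of the 3 passed an adjusted p of 0.05 in the authors' p-values, whereas all 3 of their constitutive counterparts did. At an unadjusted p under 0.05 the count higher was 1, beside 3881 of all 19294 tested genes. With 15.2% of all tested genes called higher, 0 of 3 is not far from the background share. Psmb8, the counterpart of Psmb5, had a log2 value of 0.72 by the authors' deposited table (implied SE 0.32, implied 95% interval 0.09 to 1.34, adjusted p = 0.0679). Psmb9, the counterpart of Psmb6, had one of 0.34 by the authors' deposited table (implied SE 0.25, interval -0.14 to 0.82, adjusted p = 0.3). Psmb10, the counterpart of Psmb7, had one of 0.31 by the authors' deposited table (implied SE 0.17, interval -0.03 to 0.65, adjusted p = 0.156).

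The difference of each immunoproteasome gene from its counterpart was -0.01 for Psmb8 against Psmb5, -0.30 for Psmb9 against Psmb6 and -0.32 for Psmb10 against Psmb7 on the log2 scale. These differences were not tested, since values per library are needed for that. The value of each constitutive gene lay inside the interval of its counterpart, so the missing calls do not show that the immunoproteasome genes responded less. The implied standard errors of Psmb8 and Psmb9 were 1.68 and 1.61 times those of Psmb5 and Psmb6, and that of Psmb10 was 1.10 times that of Psmb7. Coding sequences of the pairs matched at 68.6% (Psmb5 and Psmb8), 67.3% (Psmb6 and Psmb9) and 64.7% (Psmb7 and Psmb10) of aligned bases. No identical stretch exceeded 18 bases.

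Psmb8 and Psmb9 lie in the MHC region of chromosome 17 among the genes of the peptide transporter, which carries proteasome products into the endoplasmic reticulum. In GENCODE M21, Psmb9 spans 34181987 to 34187764, Tap1 34187553 to 34197225, Psmb8 34197721 to 34201454 and Tap2 34203527 to 34216321. Psmb9 and Tap1 are read in opposite directions from RefSeq starts 226 bases apart, so the Psmb9 window printed above shares 275 bases with that of Tap1. Tap1 was 1.90-fold higher by the authors' deposited table (log2 value 0.93 with an implied SE of 0.26, adjusted p = 0.00293), and Tap2 was 1.68-fold higher (0.75, adjusted p = 0.0177). The interval of Tap1 ran from 0.41 to 1.44 and overlapped that of Psmb9. Exons of Psmb9 and Tap1 share 212 bases on opposite strands, so reads of these genes may not be fully separated.

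**Figure D2:**
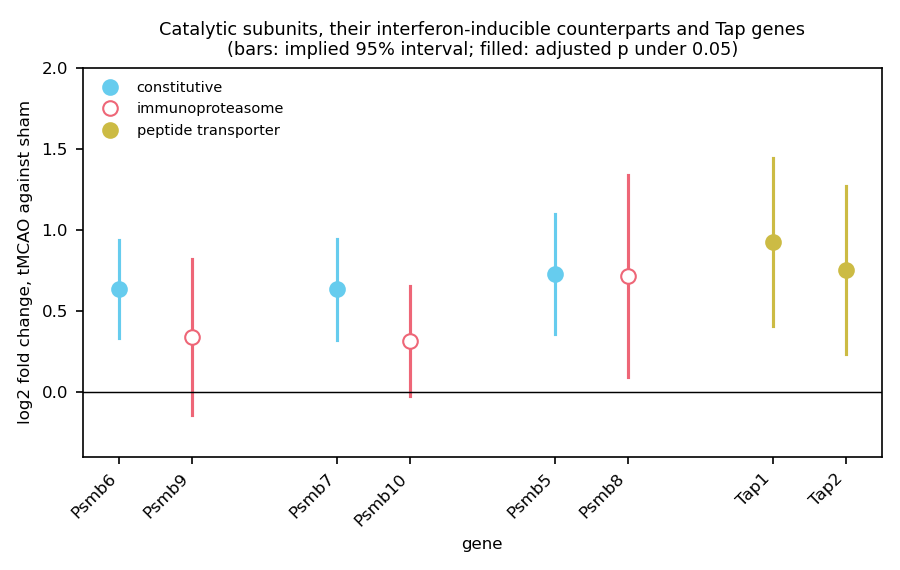
Log2 fold change (y axis, tMCAO against sham) of the constitutive cutting subunits, their interferon-inducible counterparts and the transporter genes Tap1 and Tap2 (x axis). Bars are implied 95% intervals and filled points passed an adjusted p of 0.05. Psmb9 (0.34) and Psmb10 (0.31) sit lower than Psmb6 (0.64) and Psmb7 (0.63), with overlapping intervals, and Psmb8 (0.72) is level with Psmb5 (0.73).

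The ATPase ring, which unfolds substrates, rose in all 6 genes (background 15.2%), with a median log2 fold change of 0.54. Psmc4 had the smallest adjusted p of the ring, at 1.48-fold by the authors' deposited table (log2 value 0.56 with an implied SE of 0.13, adjusted p = 0.000121). Psmc6 was the highest at 0.68 and Psmc5 the lowest at 0.48 in the authors' deposited table. Psmc3 at 0.56, Psmc1 at 0.51 and Psmc2 at 0.49 lay between them in the authors' deposited table. The spread of these 6 values was narrower than the implied interval of any one of them. Psmc3ip, which is not a subunit, stood at 0.41 (adjusted p = 0.157) in the authors' deposited table.

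Of the 14 non-ATPase genes, 13 had a p-value and 11 rose (background 15.2%), with a median log2 fold change of 0.51. The lid holds the deubiquitinase Psmd14 and its scaffold, and all 7 tested lid genes rose, with values from 0.46 to 0.74. Psmd12 was the highest of them at 0.74 (adjusted p = 0.000108) and Psmd3 the lowest at 0.46 (adjusted p = 0.00956) in the authors' deposited table. Psmd14 itself was 1.56-fold higher by the authors' deposited table (log2 value 0.65 with an implied SE of 0.16, adjusted p = 0.000721). Psmd8 stood at 0.66, Psmd13 at 0.61, Psmd7 at 0.51 and Psmd6 at 0.50 in the authors' deposited table. Psmd11, another lid gene, stood at 0.67 on the log2 scale in the authors' deposited table without a p-value, and no source used here says why.

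The large scaffold subunits of the base and the ubiquitin receptor gene rose too. Psmd2 had the smallest adjusted p of the non-ATPase class, 1.70-fold higher by the authors' deposited table (log2 value 0.77 with an implied SE of 0.16, adjusted p = 2.07e-05). Psmd1, its partner in the base, stood at 0.66 on the log2 scale (adjusted p = 0.000182) in the authors' deposited table. Psmd4, which binds ubiquitin chains, stood at 0.42 (implied SE 0.099, adjusted p = 0.000279) in the authors' deposited table. Psmd5, Psmd9 and Psmd10 are not part of the finished particle but help the ATPase ring to assemble. Of these, Psmd10 rose by 0.49 on the log2 scale (adjusted p = 0.0303), while Psmd5 stood at 0.21 (adjusted p = 0.125) and Psmd9 at 0.18 (adjusted p = 0.273) in the authors' deposited table. Psmd9 shares 25.5% of its exonic bases with the lincRNA gene Gm26745 on the other strand, Psmb8 14.7% with Gm20496, Psmd13 10.1% with Sirt3, Psmc3 8.25% with Slc39a13 and Psmc3ip 21.2% with Mlx. Psmb5 shares 12.1% with the microRNA gene Mir686 and Psmg3 9.68% with Gm26938, both on the same strand. How reads in these stretches were assigned is not known here. Of these partners on the other strand, Gm26745 stood at -0.07, Gm20496 at 0.02, Sirt3 at -0.24, Slc39a13 at 0.17 and Mlx at 0.08 on the log2 scale in the authors' deposited table, all nearer to 0 than Nek6. Psmd1 shares smaller parts, 3.47% with Htr2b on the other strand and 4.14% with Gm21972 on the same strand. Htr2b stood at 1.59 and Gm21972 at -0.14 on the log2 scale in the authors' deposited table, both without a p-value. Psme2b shares 4.90% with 9930111J21Rik1 on the same strand, which stood at 0.35 (adjusted p = 0.352) in the authors' deposited table. Psmd10 was not called with the deposited p read as unadjusted, nor with a trend in transcript length and GC content removed.

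**Figure D3:**
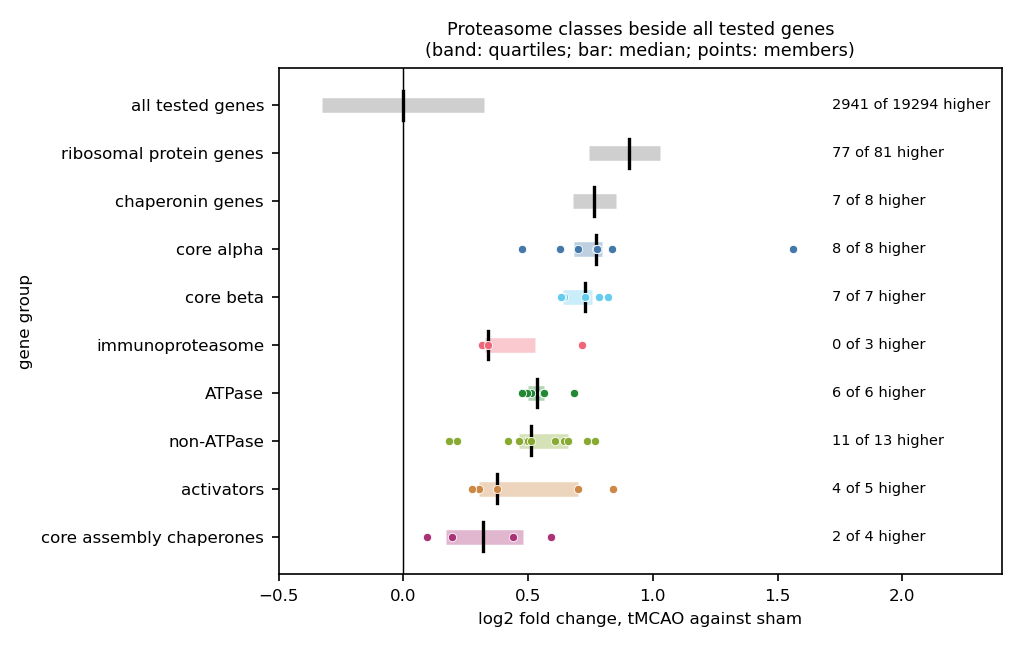
Log2 fold changes (x axis, tMCAO against sham) of the tested genes of each proteasome class (y axis), beside all tested genes, ribosomal protein genes and chaperonin genes. Points are genes, bands the quartiles and bars the medians; the counts give genes with an adjusted p under 0.05 and a higher value. Core alpha (0.77) and beta (0.73) medians lie right of the ATPase (0.54) and non-ATPase (0.51) medians, and the immunoproteasome (0.34), activator (0.38) and assembly chaperone (0.32) medians lie further left.

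Set side by side, the 15 tested core subunit genes had a median of 0.73 and the 16 tested ATPase, base and lid genes one of 0.56 on the log2 scale. All 31 were called higher (background 15.2%), from 0.42 for Psmd4 to 1.56 for Psma8. Genes share libraries and are not replicates, so the difference between the classes was not tested.

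The activators rose in 4 of 5 genes (background 15.2%), with a median of 0.38. Psme1 and Psme2 encode the interferon-inducible cap, Psme3 a nuclear cap and Psme4 a large single-chain cap. Psme2 was 1.79-fold higher by the authors' deposited table (log2 value 0.84 with an implied SE of 0.26, adjusted p = 0.00712). Psme1 was 1.63-fold higher by the authors' deposited table (log2 value 0.70 with an implied SE of 0.27, adjusted p = 0.0286). Psme3 was 1.24-fold higher (log2 value 0.30, implied SE 0.11, adjusted p = 0.0166) and Psme4 1.21-fold higher (0.28, 0.093 and 0.0122) in the authors' deposited table. The intervals of Psme1 (0.18 to 1.22) and Psme3 (0.10 to 0.51) overlap, and no difference among the caps was tested. With the deposited p read as unadjusted, Psme2 was called and Psme1, Psme3 and Psme4 were not (1 of 5). Psme3 was also not called with the trend in transcript length and GC content removed.

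Psme2b, the activator gene that did not pass (log2 value 0.38, implied SE 0.28, adjusted p = 0.316 in the authors' deposited table), is a near-copy of Psme2. Their coding sequences differ at 5 of 717 bases (99.3% identical) and share a stretch of 311 identical bases. Coding bases 454 to 543, the 90 bases with the most differences, are shown from GENCODE M21 with the 3 differing bases in capitals.
Psme2: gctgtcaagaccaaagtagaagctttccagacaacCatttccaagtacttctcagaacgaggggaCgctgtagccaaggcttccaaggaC
Psme2b: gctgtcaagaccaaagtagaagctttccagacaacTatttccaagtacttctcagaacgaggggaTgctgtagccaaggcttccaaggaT
No source used here says how reads matching both genes were assigned, so both values are uncertain.

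Psmf1, which encodes an inhibitor of the core particle, stood at 0.08 on the log2 scale (implied SE 0.099, adjusted p = 0.59) in the authors' deposited table. Its interval, -0.12 to 0.27, lies below the median of the proteasome genes. Of the 4 chaperone genes that help the alpha ring to form, 2 rose (background 15.2%). Psmg4 rose by 0.59 on the log2 scale (adjusted p = 0.0263) and Psmg1 by 0.44 (adjusted p = 0.0083) in the authors' deposited table. Psmg2 stood at 0.20 (adjusted p = 0.317) and Psmg3 at 0.10 (adjusted p = 0.688) in the authors' deposited table. Psmg1 and Psmg2 form a dimer, as do Psmg3 and Psmg4, so each dimer had a member that was called and one that was not. With a trend in transcript length and GC content removed, neither Psmg1 nor Psmg4 was called (0 of 4).

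Other proteins that bind or build the proteasome gave a mixed picture. Of 11 genes in the list, 10 were tested, 4 rose (background 15.2%) and none fell (background 17.6%), with a median log2 fold change of 0.14. None fell at an unadjusted p under 0.05 either, against 4205 of all 19294 tested genes. Shfm1, the older symbol of the lid subunit Sem1, rose by 0.76 (adjusted p = 0.000824) and Pomp, the chaperone that matures the core, by 0.74 (adjusted p = 0.00138) in the authors' deposited table. Txnl1, a thioredoxin-like protein of the regulatory particle, rose by 0.65 and the ubiquitin receptor gene Adrm1 by 0.32 in the authors' deposited table. The ubiquitin-editing enzymes Usp14 and Uchl5, which bind the particle and were picked with their values known, were not called. Usp14 stood at 0.02 (adjusted p = 0.944) and Uchl5 at 0.15 (adjusted p = 0.504) in the authors' deposited table. The lid deubiquitinase gene Psmd14, described above, was called higher. Paaf1 was not analysed here.

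Regulators of proteasome genes were called in 2 of 7 cases, a share not far from the background (15.2% higher). Nlrc5, the transactivator of MHC class I genes, was 2.63-fold higher by the authors' deposited table (log2 value 1.40 with an implied SE of 0.20, adjusted p = 2.96e-10). Ddi2, the protease that activates the Nfe2l1 protein, rose by 0.35 (adjusted p = 0.00398) in the authors' deposited table. Nfe2l2 stood at 0.71 (adjusted p = 0.0973) in the authors' deposited table. Nfe2l1 and Irf1 were chosen with their values known. Nfe2l1 stood at -0.02 (implied SE 0.15, adjusted p = 0.938) and Irf1, which drives the immunoproteasome genes, at 0.45 (adjusted p = 0.254) in the authors' deposited table. The Nfe2l1 protein is activated by cleavage, and only RNA was measured here.

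Genes that supply ubiquitin and deliver substrates rose in 7 of 13 cases (background 15.2%) and fell in 1 (background 17.6%), with a median of 0.35. Vcp, the ATPase that extracts ubiquitinated proteins, rose by 0.83, the shuttle receptor gene Rad23b by 0.56, and the ubiquitin fusion gene Rps27a by 0.95 in the authors' deposited table. Ubqln2, picked with its value known, was the shuttle gene that fell (-0.39 on the log2 scale, adjusted p = 0.00518) in the authors' deposited table. Peptide loading genes rose in 4 of 9 cases (background 15.2%) and none fell (background 17.6%), with a median of 0.52. None fell at an unadjusted p under 0.05 either, against 4205 of all 19294 tested genes. Besides Tap1 and Tap2, those that rose were the chaperone genes Calr at 0.43 and Pdia3 at 0.52 in the authors' deposited table.

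**Figure D4:**
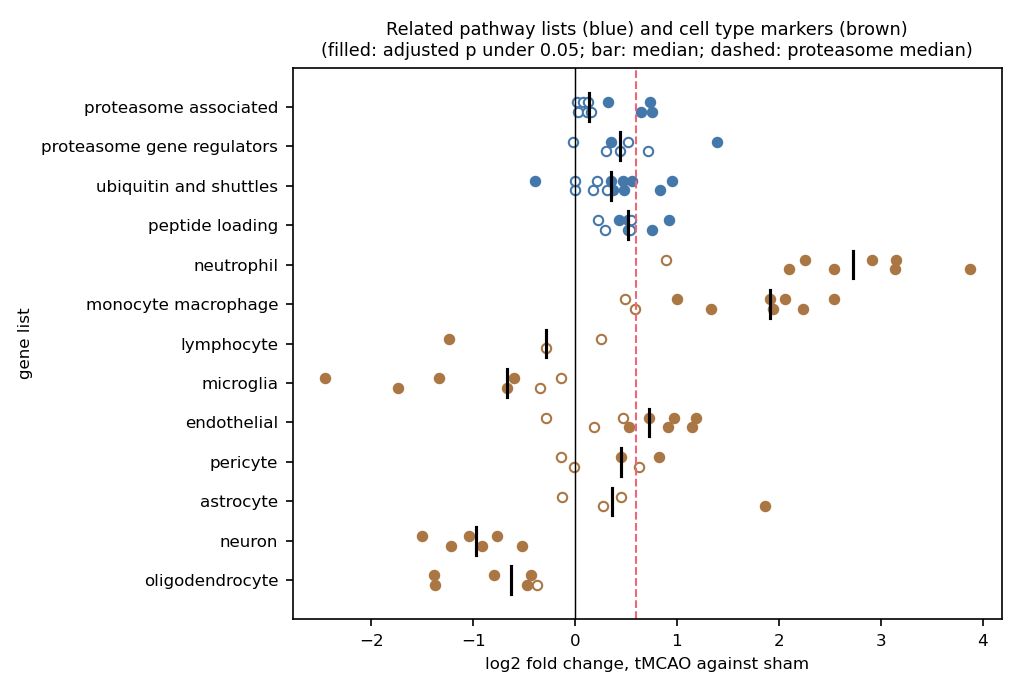
Log2 fold changes (x axis, tMCAO against sham) of the tested genes in pathway lists related to the proteasome (blue) and in cell type marker lists (brown), by list (y axis). Filled points passed an adjusted p of 0.05, bars are list medians and the dashed line is the proteasome median (0.60). Neutrophil (2.73) and monocyte (1.91) medians lie far to the right and neuron (-0.98), microglia (-0.66) and oligodendrocyte (-0.63) medians to the left.

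Markers of several cell types moved in the same comparison, in which 15.2% of all tested genes were called higher and 17.6% lower. Neutrophil markers rose in 7 of 8 tested genes (median 2.73, range 0.89 to 3.87), led by Il1r2 at 3.15 and Trem1 at 3.87 in the authors' deposited table. Monocyte and macrophage markers rose in 7 of 9 (median 1.91), with Cd14 at 2.54 and Itgam at 1.91 in the authors' deposited table. Endothelial markers rose in 6 of 9 (median 0.73), with Emcn at 1.14 and Cdh5 at 1.18, pericyte markers in 2 of 5 (median 0.45), with Abcc9 at 0.45 and Kcnj8 at 0.83, and astrocyte markers in 1 of 4 (median 0.36), Gfap at 1.87, in the authors' deposited table. The pericyte markers Rgs5 (-0.01) and Vtn (-0.13), picked with their values known, were not called in the authors' deposited table. The endothelial markers that were not called were Cldn5 (0.47), Tek (0.18) and Slco1a4 (-0.29). Among astrocyte markers these were Aldh1l1 (0.45), Aqp4 (0.27) and Slc1a3 (-0.13), all in the authors' deposited table and named with their values known. Neuron markers fell in 6 of 6 (median -0.98), oligodendrocyte markers in 5 of 6 (median -0.63) and microglia markers in 5 of 7 (median -0.66), with Syt1 at -1.50, Cnp at -0.43 and Siglech at -2.46, by the authors' deposited table. Lymphocyte markers had a p-value for 3 of 9 genes, of which Cd4 fell, with -1.24 on the log2 scale in the authors' deposited table. Leukocytes are known for high levels of the immunoproteasome. The part of any of these shifts in the proteasome values was not tested, and summed marker levels per group were not analysed here. For the same reason the labelled microvessel identity was not checked against the levels of its markers.

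Genes of other abundant protein complexes rose as well. Ribosomal protein genes rose in 77 of 81 tested genes (background 15.2%), with a median of 0.90 on the log2 scale, though many have near-identical pseudogene copies that can share reads. Chaperonin genes, which encode a ring that folds actin and tubulin, rose in 7 of 8 (background 15.2%), with a median of 0.76. If every value were centred on the ribosomal protein genes, all log2 fold changes would lie 0.90 lower. Then 1 proteasome gene, Psma8, would be called higher and 23 lower, and the calls over all genes would be 330 higher and 15047 lower in place of 2941 and 3391. Directions here are relative to the median tested gene.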

How the data were processed

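Total RNA was rid of ribosomal RNA and sequenced, per the labels' protocols. STAR, HTSeq, DESeq2, cutadapt and bcl2fastq 2.19, as well as the GRCm38 build (mm10), are listed without roles, options or a strand setting, per the submitters' processing notes. The authors deposited a log2 fold change and a p-value for each gene, per the file headers. Of the columns used here, 0 hold values per library, so sequencing depth is unknown. Of 48404 listed genes 31616 have a log2 fold change and 19294 a p-value. In the p-value column 3214 values recur in more than a single gene, as Benjamini-Hochberg adjustment leaves behind, and it was taken to be adjusted. In the deposited log2 fold changes, 8 values are each shared by 212 to 440 genes, none of them a proteasome gene. Shrinkage by the authors is possible but is not stated, and it was not tested. The authors' linear fold changes (ratios) and z-scores were not used.

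To undo the adjustment, each p was scaled by the ratio of its rank, ties taking the last, to the number of tests. It was turned into a normal deviate, which divided into the log2 fold change gave the implied standard error. Implied 95% intervals are the value plus or minus 1.96 such errors, for a single gene and with no adjustment. The arithmetic was tested on simulated normal values. That checks the calculation only, and cannot show whether the deposited p is adjusted or the fold changes were shrunken. A gene was called at an adjusted p under 0.05 over all tested genes. Lists were described by counts and medians, with no list test. Named were, per class, the genes with the smallest adjusted p and with the highest and lowest value, the immunoproteasome genes with their counterparts and all activators. Of the pathway lists up to 4 genes and of the cell type lists up to 2 with the smallest adjusted p were named. Some genes of the pathway lists that meet this rule are not reported here. The members, lists and rules were chosen with earlier results of these data known. Unmatched list symbols were looked up among RefSeq synonyms. Promoter windows came from RefSeq (GRCm38.p6), and gene positions and coding sequences from GENCODE M21 (GRCm38). Python 3.11.15, pandas 2.3.3, numpy 2.4.6 and scipy 1.17.1 were used.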

Additional observations from a re-analysis of the deposited data

How the results depend on the processing

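The count of 38 proteasome genes called higher became 33 with the deposited p read as unadjusted, 33 at an adjusted p under 0.01, 39 at 0.1, 28 with a minimum of 0.5 on the absolute log2 scale, and 34 with a trend in transcript length and GC content removed. It stayed 38 when centred on the best measured genes, the 25% with the smallest implied standard error (median 0.61 against 0.60). Over all 19294 tested genes, the count called higher was 2941 in the main setting. It was 1941 with p read as unadjusted, 1885 at 0.01, 3671 at 0.1, 2213 with the minimum fold and 3013 with this centring. With the length and GC trend removed it was 3032 of 19225. The length and GC trend lowered the median of the proteasome genes to 0.51. No proteasome gene was called lower in any of these settings, against 2335 (at 0.01) to 4045 (at 0.1) of all tested genes. Counts by class that moved by over 1.5 times were those of the activators (4 to 1 with p read as unadjusted, 1 at 0.01, 2 with the minimum fold), the core assembly chaperones (2 to 1 with p read as unadjusted, 1 at 0.01, 1 with the minimum fold, 0 without the length and GC trend), the immunoproteasome (0 to 1 at 0.1, Psmb8) and the non-ATPase genes (11 to 7 with the minimum fold). The genes no longer called at 0.01, and likewise with p read as unadjusted, were Psmd10, Psme1, Psme3, Psme4 and Psmg4.

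Centring on ribosomal protein genes, which themselves rose, left 1 gene called higher and 23 lower, with a median of -0.30. By class the medians became -0.13 (core alpha), -0.17 (core beta), -0.57 (immunoproteasome), -0.37 (ATPase), -0.39 (non-ATPase), -0.53 (activators) and -0.59 (assembly chaperones). The genes called higher were then 1 alpha gene, 0 beta, 0 ATPase, 0 non-ATPase, 0 activator and 0 chaperone genes. Those called lower were 1 of 8 alpha, 2 of 3 immunoproteasome, 5 of 6 ATPase and 8 of 13 non-ATPase genes. To these come 2 of 5 activator and 3 of 4 chaperone genes, with Psmf1 and Psmc3ip. Over all 19294 tested genes, 330 were called higher and 15047 lower with this centring. Leaving out Psme2, Psme2b and Psmc3ip, or, as added after seeing the data, Psma8 and Psmb11, kept all other calls (37 higher in each case). The mean of the log2 fold changes, also added after seeing the data, was 0.57. Leaving out each library was not run, as it needs values per library. No paired analysis was run, because no column used here holds values per library. Depth is unknown, so the implied standard error limits what each value can show.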
